A study of Homo sapiens with 6 samples.

Results

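Aminoacyl-tRNA synthetases are the enzymes that load each amino acid onto its matching tRNA, the step that ties the genetic code to protein synthesis. Their genes were picked out of the deposited expression table by symbol: a letter for an amino acid followed by ARS, with a final 2 for the mitochondrial form, plus EPRS, EARS2 and PARS2. This gave 37 genes of 16659, of which 36 are described, 20 cytosolic and 16 mitochondrial. HepaRG is an established human cell line from a liver cancer, described in the labels as hepatic stem cells. The study measured mRNA in untreated HepaRG cells, in 3 libraries of the wild type, named as the control, and 3 libraries of a line with a functional knockout of PXR, the pregnane X receptor, a nuclear receptor that switches on drug metabolism genes and is encoded by NR1I2. The labels name no other allele or agent, do not give the number of knockout clones, and do not say whether the 3 libraries of a group came from separate cultures. The p-values therefore measure the spread between these libraries, which may be technical.

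Human cells use separate sets of synthetases for the cytosol and for mitochondria, both encoded in the nucleus, with GARS and KARS each serving both places. The cytosolic enzymes EPRS, IARS, LARS, MARS, QARS, RARS, KARS and DARS sit together in the multisynthetase complex, held by the scaffold proteins AIMP1, AIMP2 and EEF1E1. When amino acids run short, the transcription factor ATF4 binds C/EBP-ATF response elements and raises many cytosolic synthetase genes together with genes of amino acid uptake and synthesis.

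Such elements are known close to the start of several synthetase genes. RefSeq promoter windows of build GRCh38.p14, 250 bases before to 50 bases after each start, were searched on both strands for TGATGNAAN, where N is any base. Windows were found for 30 of the 36 genes; DARS, LARS, YARS, VARS, AARS2 and VARS2 had none. The match was present in 7 of 16 cytosolic genes (43.75%) and in 1 of 14 mitochondrial genes (7.14%), against 366 of 11843 genes of the deposited table with a window (3.09%). Sequences around 6 of the matches are printed because the cytosolic genes are divided by such matches further on; the other cytosolic genes with a match were IARS and MARS. Each is given 5′ to 3′ on the strand of its gene with the match in capitals, and a match on the opposite strand reads as the reverse complement.
AARS: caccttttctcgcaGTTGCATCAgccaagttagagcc
CARS: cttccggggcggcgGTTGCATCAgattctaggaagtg
GARS: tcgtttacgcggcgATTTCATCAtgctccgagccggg
NARS: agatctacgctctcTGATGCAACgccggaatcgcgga
TARS: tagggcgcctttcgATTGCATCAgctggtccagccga
YARS2: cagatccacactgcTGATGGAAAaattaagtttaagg

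These stretches lay at chr16:70289672-70289708 on the minus strand for AARS, chr11:3057404-3057440 on the minus strand for CARS and chr7:30594830-30594866 on the plus strand for GARS. The others lay at chr18:57621800-57621836 on the minus strand for NARS, chr5:33440952-33440988 on the plus strand for TARS and chr12:32756072-32756108 on the minus strand for YARS2. In 4 of the 5 cytosolic genes printed the match lay within 34 bases of an annotated RefSeq start, and in AARS it lay 188 bases before it. CARS, GARS and TARS each had 2 windows, of which only 1 held the match. The match of CARS shared all 9 letters with that of AARS, and the match of NARS is their reverse complement. A match is a description of these letters, and binding was not measured.

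Values in the deposited table are CPM, a gene's reads relative to the depth of its library, multiplied by a further factor for each library, and are called scaled CPM. Libraries held an estimated 11359209 to 20945994 reads in wild type and 28154914 to 33393110 in the knockout, and the lowest read count of any synthetase, that of YARS2 in a wild-type library, was 114. Changes are differences in log2(scaled CPM + 0.5), knockout minus wild type, fitted with limma over 16219 genes, and a gene was called where its p-value adjusted by the Benjamini-Hochberg method over all of them was under 0.05. NR1I2 itself stood at 8.24, 7.04 and 7.60 scaled CPM in wild type and 13.1, 13.4 and 14.3 in the knockout; a total over the gene does not test a functional knockout, so "knockout" stands for the libraries with that label. Of 10 hepatocyte markers 9 were analysed here. All 9 were called higher in the knockout, and their summed level was 2226 to 2299 scaled CPM in wild type and 42984 to 44186 in the knockout; AHSG was listed at 0 in 1 wild-type library. Of 6 cholangiocyte markers 4 were analysed here, with 2 called higher and 2 lower. Their sum was 489 to 515 in wild type and 373 to 399 in the knockout. Of 6 stellate or mesenchymal markers 5 were analysed, with 4 called higher and 1 lower (sums 95.0 to 101 and 479.9 to 502). Of 5 endothelial markers 2 were analysed, with 1 called higher and 1 lower (sums 54.8 to 55.1 and 215 to 222). Of 6 leukocyte markers 3 were analysed, with 2 called higher and 1 lower (sums 13.6 to 16.8 and 22.7 to 24.1). Across all genes tested 40.3% were called higher and 39.6% lower. In bulk RNA, fewer cells of a type and less RNA per cell cannot be told apart, and the part of cell state in the synthetase values was not tested.

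The synthetases were lower as a group in the knockout libraries. Their summed level was 4589, 4665 and 4681 scaled CPM in the 3 wild-type libraries and 3389, 3364 and 3453 in the knockout, 73.2% of wild type. All 36 passed the low-value filter. Of these, 21 were called lower, 6 higher and 9 were not called, with a median log2 change of -0.28. Across all genes tested 79.9% were called, 39.6% lower and 40.3% higher, and the median log2 change was 0.01. The groups did not overlap for 28 of the 36, close to the 80.8% of all genes for which they did not, so separation of the libraries alone does not set a gene apart here. By direction, 58.3% of the synthetases were called lower and 16.7% higher. A change of at least 2-fold downward was seen in 5 of 36, all of them cytosolic, against 10.1% of all genes.

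**Figure D1:**
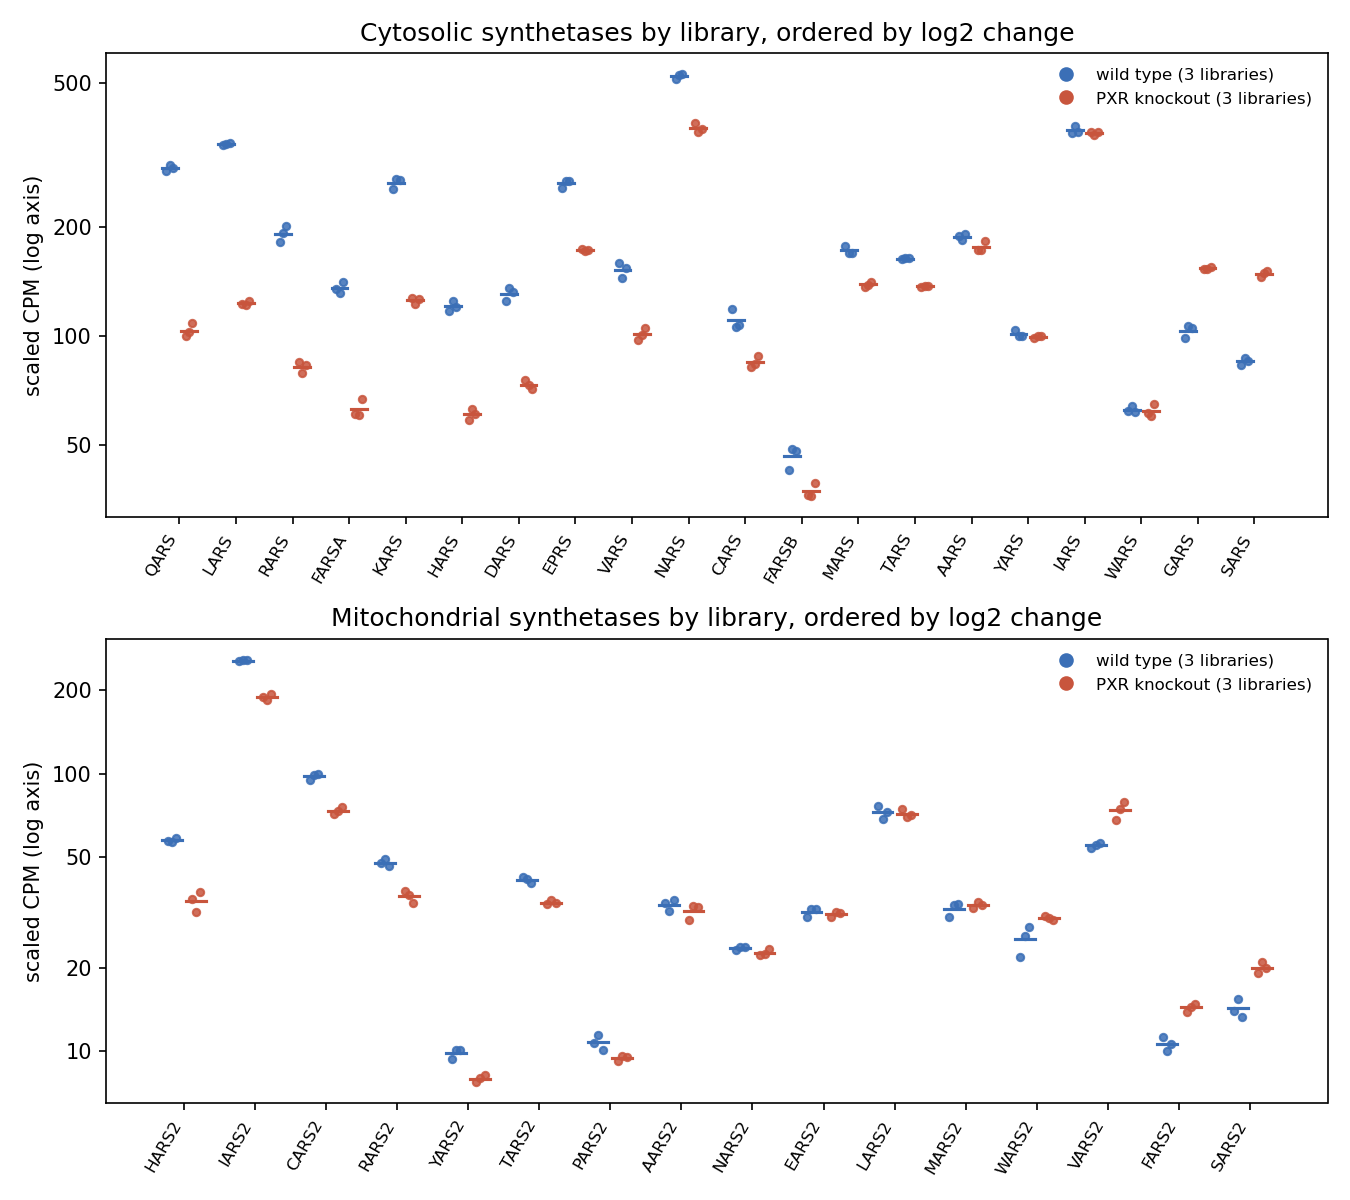
Scaled CPM (log axis) of each cytosolic (top) and mitochondrial (bottom) synthetase in each library, with wild type in blue, the PXR knockout in red, points for libraries and bars for means, ordered by log2 change. At the left of the upper panel the knockout points lie far below the wild-type points (QARS at 99.8 to 109 against 286 to 297), while at its right end GARS and SARS lie above.

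The cytosolic enzymes carried most of the fall. Of 20, 15 were called lower (75.0%), 2 higher (10%) and 3 were not called, with a median log2 change of -0.43. Their sum went from 3825 ± 41.9 scaled CPM (SD, n = 3) to 2687 ± 35.3, or 70.2% of wild type. The mitochondrial sum went from 819.7 ± 7.49 to 715 ± 12.3, or 87.2%. Of the 16 mitochondrial enzymes, 6 were called lower (37.5%), 4 higher (25%) and 6 were not called, with a median of -0.067. Their share called lower was close to the 39.6% of all genes, and their share called higher was below the 40.3% of all genes. When all libraries were scaled to equal sums, the median of all genes moved to -0.12 and 11 mitochondrial enzymes were called lower and 3 higher, so the split of the mitochondrial set rests on the scaling. The cytosolic split was 18 lower and 2 higher with that scaling. Over all genes, calls were 6534 higher and 6426 lower as deposited, and 5256 higher and 7869 lower when sums were equalised without small RNA genes.

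The 3 largest cytosolic falls, of QARS, LARS and RARS, were among enzymes of the multisynthetase complex. QARS (glutaminyl-tRNA synthetase; chr3:49095932-49105135, minus strand) stood at 286, 297 and 292 scaled CPM in wild type and 99.8, 102 and 109 in the knockout. The 2 groups lay far apart, with a log2 change of -1.49 (SE 0.033, adjusted p = 3.01e-14), or 35.5% of the wild-type mean. LARS (leucyl; chr5:146113038-146182660, minus strand), whose product also acts as a leucine sensor for mTORC1, stood at 338, 339.8 and 342 scaled CPM in wild type and 123, 122 and 125 in the knockout. Its change of -1.46 (SE 0.025, adjusted p = 2.2e-15) was nearly as large as that of QARS and varied little between libraries. RARS (arginyl; chr5:168486445-168519299, plus strand) read 183, 193 and 201 scaled CPM in wild type and 84.8, 78.9 and 83.4 in the knockout. That was a log2 change of -1.22 (SE 0.039, adjusted p = 1.2e-12). KARS (lysyl; chr16:75627474-75648643, minus strand) read 256, 271 and 269.8 scaled CPM in wild type and 128, 123 and 127 in the knockout, a change of -1.08 (SE 0.030, adjusted p = 3.4e-13). In each of these 4 genes all knockout libraries lay far below all wild-type libraries.

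The other 4 enzymes of the complex changed less. DARS (aspartyl; chr2:135906677-135986100, minus strand) read 125, 136 and 132 scaled CPM in wild type and 75.7, 73.2 and 71.3 in the knockout, with a log2 change of -0.83 (SE 0.036, adjusted p = 4.03e-11). EPRS, a fused enzyme for glutamate and proline (chr1:219968601-220046658, minus strand), read 258, 268 and 269 scaled CPM in wild type and 174, 172 and 173 in the knockout, with a change of -0.61 (SE 0.027, adjusted p = 4.4e-11). MARS (methionyl; chr12:57475445-57517569, plus strand) fell from 173 ± 4.14 to 139 ± 2.25 scaled CPM, with a log2 change of -0.31 (SE 0.029, adjusted p = 1.7e-07). IARS (isoleucyl; chr9:92210207-92293756, minus strand) did not pass the threshold. It read 365, 381 and 368 scaled CPM in wild type and 368, 359 and 368 in the knockout, so the groups overlapped, and its log2 change was -0.023 (SE 0.026, adjusted p = 0.42). IARS was called lower with quantile normalization (-0.12), with equal sums (-0.16), and with the median of its chromosome (-0.18, adjusted p = 1.8e-05) or 20 Mb window (-0.14) taken out. As deposited, knockout means within the complex ran from 35.5% (QARS) to 98.4% (IARS) of wild type. The 8 enzymes together had a median change of -0.96 and 7 of 8 were called lower (87.5%), beside 39.6% of all genes. Their sum fell from 2029 ± 36.5 to 1186 ± 14.9 scaled CPM (SD, n = 3), 58.4% of wild type.

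Of the 3 scaffold genes of the complex AIMP1 was called lower. The call of AIMP2 depended on the scaling and on position, and that of EEF1E1 on the scaling. AIMP1 read 62.98, 65.4 and 61.4 scaled CPM in wild type and 50.7, 47.6 and 47.9 in the knockout, with a log2 change of -0.37 (SE 0.040, adjusted p = 8.5e-07). AIMP2 and EEF1E1 did not pass the threshold, at -0.042 (SE 0.037, adjusted p = 0.31) and -0.12 (SE 0.090, adjusted p = 0.21); both were called lower once sums were made equal across libraries, at -0.18 and -0.26. AIMP2 lay where genes were higher, with a window median of 0.40, and was called lower with the chromosome median taken out (-0.47, adjusted p = 5.2e-08) or the window median taken out (-0.44, adjusted p = 1.0e-07). The MARS gene overlaps DDIT3, a stress-response transcription factor gene, on the opposite strand, and whether counting used strand is not given in the sources used here. DDIT3 rose where MARS fell, with a log2 change of 1.27 (SE 0.044, adjusted p = 2.8e-12).

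Outside the complex, FARSA, HARS and VARS fell furthest. FARSA, the catalytic subunit of cytosolic phenylalanyl-tRNA synthetase (chr19:12922479-12934037, minus strand), read 135, 132 and 141 scaled CPM in wild type and 60.99, 60.4 and 66.9 in the knockout, with a log2 change of -1.11 (SE 0.041, adjusted p = 7.1e-12). Its partner subunit FARSB (chr2:222570536-222656337, minus strand) read 42.7, 48.8 and 48.3 scaled CPM in wild type and 36.3, 36.05 and 39.4 in the knockout, with a smaller change of -0.32 (SE 0.055, adjusted p = 1.1e-04). The 2 subunits form 1 enzyme in equal amounts; the FARSA mRNA fell to 46.2% of wild type and the FARSB mRNA to 79.96%. HARS (histidyl; chr5:140673904-140691862, minus strand) read 118, 125 and 120.4 scaled CPM in wild type and 58.4, 62.99 and 60.8 in the knockout, with a log2 change of -0.99 (SE 0.037, adjusted p = 6.6e-12). VARS (valyl) fell from 153 ± 7.58 to 101 ± 4.02 scaled CPM, a change of -0.59 (SE 0.039, adjusted p = 4.5e-09).

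NARS, CARS, TARS and AARS fell more modestly. NARS (asparaginyl; chr18:57600656-57622213, minus strand) was the most abundant synthetase per kilobase of transcript in both groups and read 516, 526 and 531 scaled CPM in wild type and 389, 367 and 373 in the knockout. Its change was -0.48 (SE 0.028, adjusted p = 9.2e-10). CARS (cysteinyl) went from 111 ± 6.97 to 84.6 ± 3.08 scaled CPM with a log2 change of -0.39 (SE 0.043, adjusted p = 1.4e-06), and TARS (threonyl) from 164 ± 0.668 to 137 ± 0.502 scaled CPM with a log2 change of -0.25 (SE 0.026, adjusted p = 4.6e-07). AARS (alanyl; chr16:70252295-70289543, minus strand) was barely separated, at 189, 184 and 192 scaled CPM in wild type and 173, 173 and 183 in the knockout. Its change of -0.091 (SE 0.030, adjusted p = 0.013) did not pass without wild-type library 3 (adjusted p = 0.057) or without knockout library 2 (adjusted p = 0.057), nor when the median change of its chromosome was taken out (adjusted p = 0.14). YARS (tyrosyl) and WARS (tryptophanyl), the latter known for strong induction by interferon, were not called, at -0.026 (SE 0.030, adjusted p = 0.44) and -0.011 (SE 0.038, adjusted p = 0.80). With equal sums YARS, IARS and WARS were called lower, at -0.16, -0.16 and -0.15; with the median of the chromosome taken out YARS and WARS were at 0.014 and 0.025 and not called, while IARS was called lower.

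Only SARS and GARS rose among the cytosolic enzymes. SARS (seryl; chr1:109213918-109238169, plus strand) read 83.3, 86.9 and 85.1 scaled CPM in wild type and 145, 149.7 and 152 in the knockout. The groups were far apart, with a log2 change of 0.80 (SE 0.031, adjusted p = 9.2e-12), or 175% of wild type. GARS (glycyl; chr7:30594681-30634033, plus strand), mutated in an inherited neuropathy, read 99.1, 107 and 105 scaled CPM in wild type and 154, 153 and 155 in the knockout, with a log2 change of 0.57 (SE 0.032, adjusted p = 6.98e-10). GARS lies in a stretch of chromosome 7 where genes were generally higher: the median change of the 88 genes tested in a 20 Mb window around it was 0.39, against -0.033 around SARS. Relative to its window GARS was at 0.18. The 12 cytosolic genes outside the complex had a median of -0.29, and their sum was 83.6% of wild type. Of these, 8 were lower (66.7%), 2 higher (16.7%) and 2 not called, beside 39.6% lower and 40.3% higher over all genes.

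**Figure D2:**
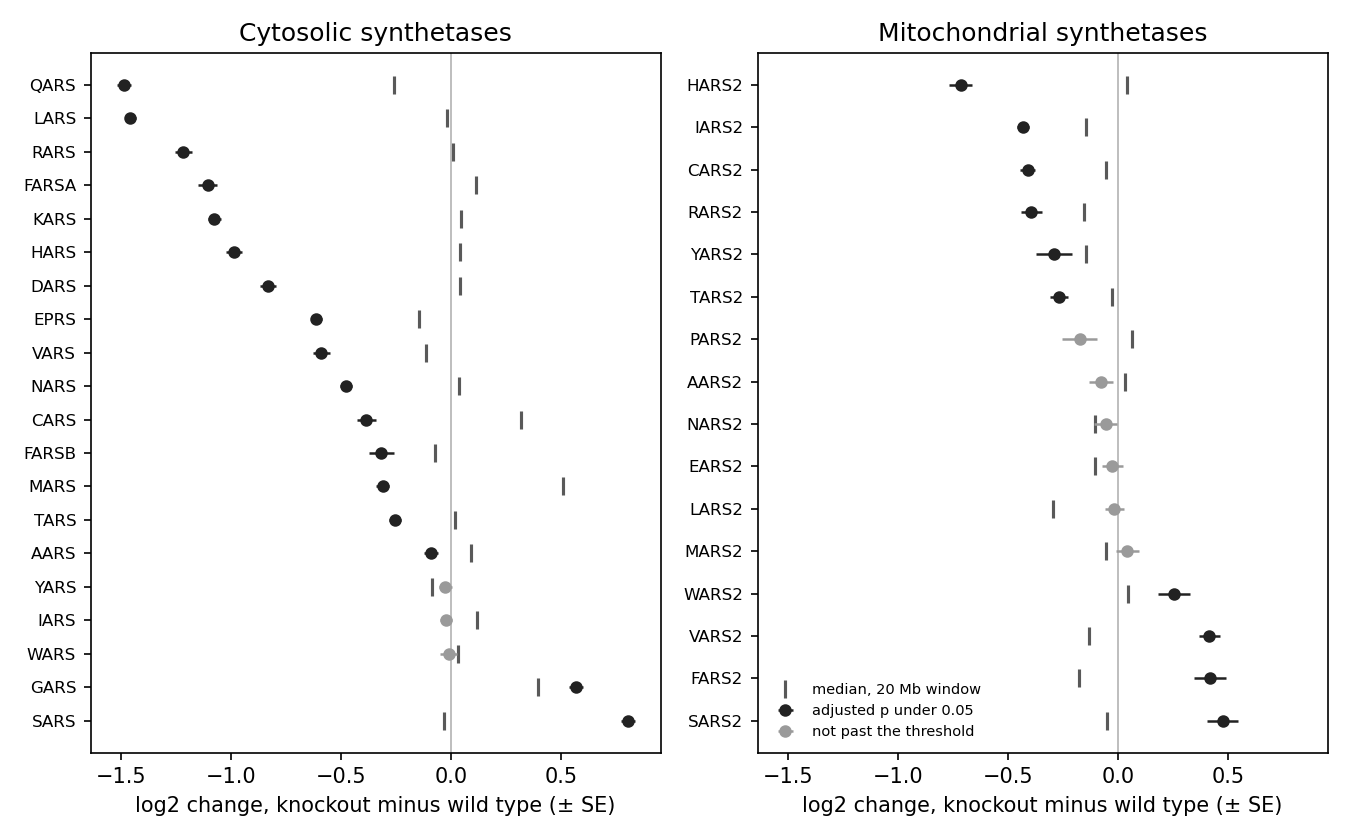
Log2 change (knockout minus wild type, point, with its SE as a bar) of each cytosolic (left) and mitochondrial (right) synthetase; black points were called at an adjusted p under 0.05, grey points were not, and the upright tick is the median change of genes in a 20 Mb window around the gene. QARS at -1.49 and HARS2 at -0.72 lead the falls, and the ticks span -0.29 to 0.51.

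Among the mitochondrial enzymes described, HARS2, IARS2 and CARS2 fell furthest. HARS2 (histidyl; chr5:140691426-140699318, plus strand) read 57.2, 56.6 and 58.4 scaled CPM in wild type and 35.3, 31.7 and 37.4 in the knockout, with a change of -0.72 (SE 0.053, adjusted p = 1.5e-08). IARS2 (isoleucyl; chr1:220094102-220148041, plus strand), the most abundant mitochondrial form per kilobase, read 253, 256 and 256 scaled CPM in wild type and 189, 184 and 194 in the knockout, with a log2 change of -0.43 (SE 0.027, adjusted p = 2.2e-09). The remaining called falls were small: CARS2 -0.41, RARS2 -0.39, YARS2 -0.29 and TARS2 -0.27, with adjusted p from 5.5e-08 for CARS2 to 0.0049 for YARS2. The value of YARS2 depended on position: it was -0.14 and not called with the median of its 20 Mb window taken out (adjusted p = 0.11), and -0.62 with the median of its chromosome taken out (adjusted p = 1.1e-05).

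The 4 mitochondrial forms called higher were SARS2, FARS2, VARS2 and WARS2. SARS2 (seryl; chr19:38915266-38930896, minus strand) read 14.01, 15.5 and 13.3 scaled CPM in wild type and 19.2, 20.9 and 19.9 in the knockout, with a log2 change of 0.48 (SE 0.070, adjusted p = 2.2e-05). FARS2, a single-chain phenylalanyl enzyme (chr6:5261044-5829192, plus strand), read 11.3, 10.1 and 10.6 scaled CPM in wild type and 13.9, 14.5 and 14.8 in the knockout, a change of 0.42 (SE 0.074, adjusted p = 1.3e-04). VARS2 (valyl; chr6:30908242-30926459, plus strand) read 53.9, 55.2 and 56.2 scaled CPM in wild type and 67.8, 74.6 and 78.8 in the knockout, with a log2 change of 0.41 (SE 0.048, adjusted p = 1.9e-06). WARS2 (tryptophanyl) rose least and its wild-type libraries were uneven, at 21.9, 25.9 and 27.98 scaled CPM in wild type and 30.6, 30.1 and 29.6 in the knockout. Its change was 0.26 (SE 0.073, adjusted p = 0.0051), and it was not called with equal sums (adjusted p = 0.13). VARS2 overlaps GTF2H4 on the same strand, a gene whose log2 change was 0.45.

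The other 6 mitochondrial forms were not called. PARS2 (prolyl) read 10.7, 11.5 and 10.1 scaled CPM in wild type and 9.24, 9.63 and 9.52 in the knockout; the groups did not overlap, but the change of -0.17 (SE 0.080, adjusted p = 0.06) missed the threshold. PARS2 passed it, as lower, without wild-type library 3 (adjusted p = 0.036), with quantile normalization (0.015), with equal sums (0.0028), with its window median taken out (0.015) and without the variance trend (0.025). AARS2, NARS2, EARS2, LARS2 and MARS2 had overlapping groups and log2 changes from -0.078 for AARS2 to 0.043 for MARS2; MARS2 was at -0.093 with equal sums, and a missed threshold does not show equal levels. LARS2 lay where neighbouring genes were lower, with a window median of -0.29; relative to that window it was at 0.28 (adjusted p = 3.7e-05).

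HARS and HARS2 are neighbours that start back to back on chromosome 5 and fell together. Their RefSeq starts have 84 bases between them, at chr5:140691370-140691455 of GRCh38.p14. The stretch from the HARS start to the HARS2 start is shown because both genes are transcribed outward from it, and is given on the plus strand, which is that of HARS2; it is 59.3% G or C.
HARS-HARS2 interval: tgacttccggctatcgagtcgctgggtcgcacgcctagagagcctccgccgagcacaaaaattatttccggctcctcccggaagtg

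HARS fell to 50.2% and HARS2 to 60.7% of wild type. The other synthetases with a gene starting close by on the opposite strand are given beside that neighbour. RARS2 and its neighbour ORC3 were both lower (log2 change -0.39 and -0.80). KARS fell by 1.08 on the log2 scale and its neighbour TERF2IP by 0.21. SARS2 rose by 0.48 while MRPS12, a mitochondrial ribosomal protein gene, was not called at 0.028. EARS2 was not called while UBFD1 fell by 0.55. AARS and DDX19B were both called lower (log2 change -0.091 and -0.26). CARS2 was called lower at -0.41 while ING1 was not called at -0.040. FARS2 was called higher at 0.42 while LYRM4 was not called at -0.0033. Neither WARS nor WDR25 was called (-0.011 and -0.12). Whether a shared start region plays a part was not tested. Several of these pairs overlap at their starts in GENCODE 29, where reads of the 2 genes can be told apart only by strand. That holds for HARS with HARS2, KARS with TERF2IP, EARS2 with UBFD1, SARS2 with MRPS12, CARS2 with ING1 and WARS with WDR25. Other overlaps on the opposite strand were HARS with WDR55, YARS with S100PBP, YARS2 with DNM1L and MARS with DDIT3. DARS, CARS and WARS2 overlap the antisense genes DARS-AS1, AC108448.3 and WARS2-IT1. On the same strand HARS2 overlaps ZMAT2 and VARS2 overlaps GTF2H4, so strand cannot tell those reads apart. Levels of all these genes are uncertain to that extent.

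The 2 forms for the same amino acid were set side by side in 16 pairs, with FARSA and FARSB each paired to FARS2; no test was made between genes. The cytosolic form had the more negative change in 11 pairs and the less negative in 5. The widest gap was for phenylalanine, with FARSA at -1.11 (SE 0.041) and FARS2 at 0.42 (SE 0.074). Leucine was next, with LARS at -1.46 (SE 0.025) and LARS2 at -0.016 (SE 0.043). For valine the forms moved apart, with VARS at -0.59 (SE 0.039) and VARS2 at 0.41 (SE 0.048). For isoleucine the mitochondrial form fell further, with IARS2 at -0.43 (SE 0.027) and IARS at -0.023 (SE 0.026). Serine was the only amino acid of these pairs for which both forms rose. Both forms fell for histidine, arginine, cysteine and threonine.

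**Figure D3:**
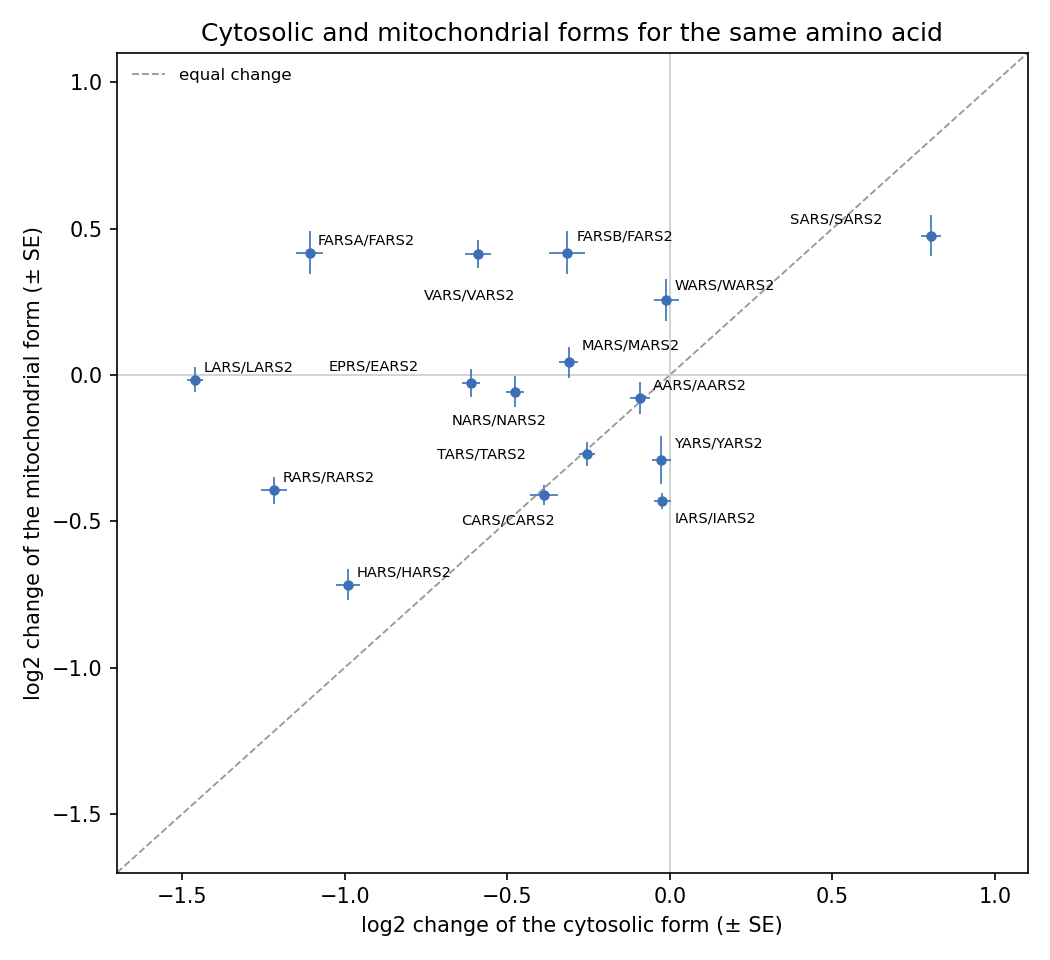
Log2 change (knockout minus wild type, with SE bars) of the cytosolic form (horizontal) against that of the mitochondrial form (vertical) for 16 pairs; the dashed line marks equal change. FARSA/FARS2, VARS/VARS2 and LARS/LARS2 lie far above the line, IARS/IARS2 and YARS/YARS2 below it, and only SARS/SARS2 lies above 0 on both axes.

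Levels were compared between genes as scaled CPM per kilobase of the longest transcript that GENCODE 29 marks as principal, or of the longest protein-coding one. The cytosolic form had the higher level in 15 of 16 pairs in both groups, the exception being CARS with CARS2. The median ratio of the cytosolic to the mitochondrial level was 4.04 in wild type and 2.23 in the knockout. NARS led at 169 per kilobase in wild type and 121 in the knockout. KARS was next in wild type at 133 and stood at 62.7 in the knockout. SARS went the other way, from 45.96 to 80.4. FARSB had the lowest cytosolic level, 13.8 and 11.1, and its ratio to FARSA shows how unequal the mRNAs of the 2 subunits were. PARS2 and YARS2 were the lowest of all, at 4.58 and 4.65 in wild type.

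The cytosolic genes were then divided by the promoter match printed above. The 7 with a match had a median log2 change of -0.25 and ranged from -0.48 (NARS) to 0.57 (GARS); 5 were called lower, 1 higher and 1 not, none fell by at least 2-fold, and their summed level in the knockout was 87.7% of wild type. The 9 with a window and no match had a median of -0.99 and ranged from -1.49 (QARS) to 0.80 (SARS); 7 were lower, 1 higher and 1 not called, and their sum was 58.5% of wild type. All of QARS, RARS, FARSA, KARS and HARS were in this second set. The 4 without a window, LARS, DARS, VARS and YARS, had a median of -0.71. The ranges of these first sets overlapped, as FARSB, WARS and SARS, which have no match, lay above NARS, the lowest gene with one. With the median change of neighbouring genes taken out, genes with a match ran from -0.82 (MARS) to 0.18 (GARS), median -0.27. Those with a window and no match ran from -1.23 (QARS) to 0.84 (SARS), median -1.03. MARS and CARS (-0.70) then lay below EPRS (-0.46) and FARSB (-0.24) but above HARS (-1.03). Complex enzymes with a window were QARS, RARS, KARS and EPRS without a match and MARS and IARS with one. No test was made, and the part of the complex was not tested.

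**Figure D4:**
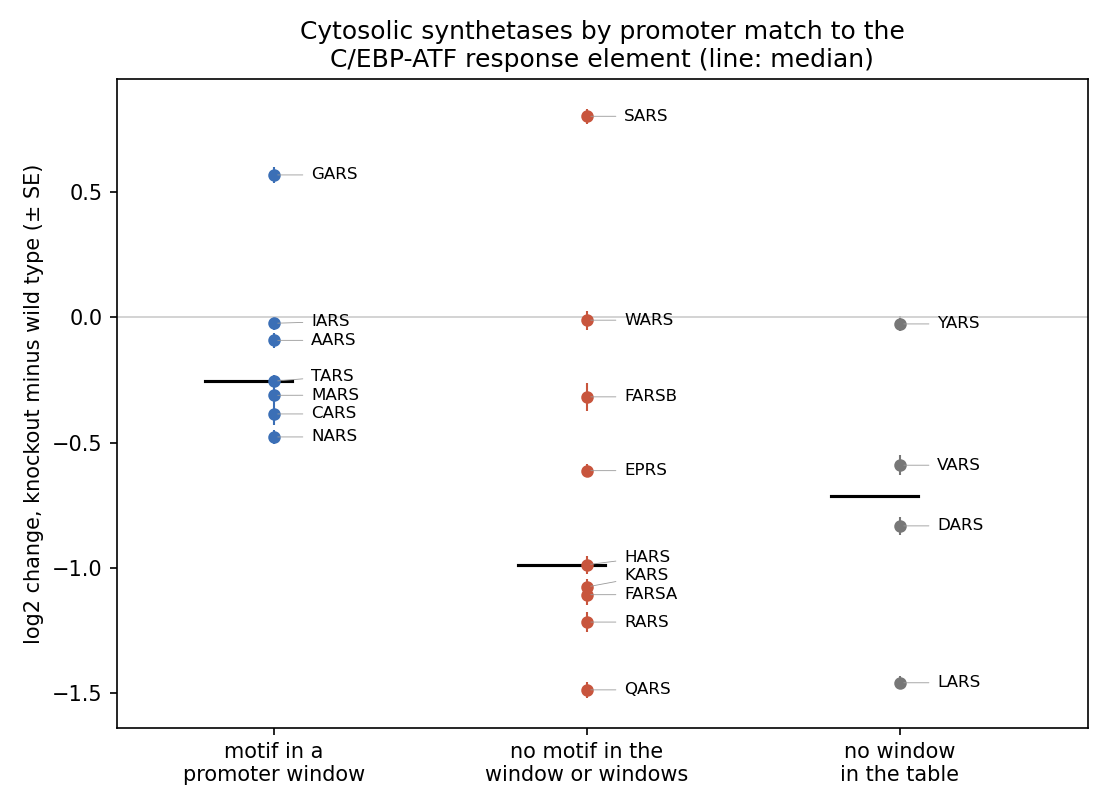
Log2 change (knockout minus wild type, point, with SE bars) of the 20 cytosolic synthetases by whether a RefSeq promoter window holds the 9-letter match; the black line is the median of each set. Genes with a match sit between -0.48 and 0.57, and the lowest 5 genes with a window all lack it.

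Genes of the amino acid response outside the family moved both ways. Of 34 genes on the list 30 were analysed here, and 18 were called higher, 9 lower and 3 not, with a median of 0.38, beside 40.3% higher and 39.6% lower over all genes. ATF4 read 212, 219 and 219.7 scaled CPM in wild type and 141, 140.3 and 141 in the knockout. Its log2 change was -0.62 (SE 0.027, adjusted p = 3.5e-11), but 0.25 (adjusted p = 5.7e-07) relative to its 20 Mb window, where genes were lower as a whole with a median of -0.87. ASNS, asparagine synthetase and a classical ATF4 target, read 16.5, 18.1 and 17.99 scaled CPM in wild type and 25.1, 25.3 and 25.1 in the knockout, with a log2 change of 0.51 (SE 0.057, adjusted p = 1.4e-06), in a window whose median was 0.44. Against the median of its chromosome, ASNS was not called (adjusted p = 0.24). CHAC1, another target, was not called at 0.16 (SE 0.14, adjusted p = 0.29).

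Among the largest changes on that list were rises of stress-linked genes and falls of 3 amino acid carriers. SESN2, a leucine-binding regulator of mTORC1, read 10.6, 9.29 and 9.58 scaled CPM in wild type and 72.4, 75.8 and 74.8 in the knockout, with a log2 change of 2.86 (SE 0.056, adjusted p = 9.00e-15). NUPR1 and PCK2 rose, with log2 changes of 2.00 and 1.34. STC2 read 0.0824, 0 and 0.0450 scaled CPM in wild type and 11.9, 11.2 and 12.1 in the knockout, so that wild type stood at 1 read or none per library and no fold is given. SLC7A5, which brings in leucine and other large neutral amino acids, read 10.7, 10.0046 and 11.2 scaled CPM in wild type and 1.36, 1.78 and 1.39 in the knockout, with a log2 change of -2.47 (SE 0.12, adjusted p = 9.3e-11). SLC7A11, the cystine carrier, read 134, 135 and 136 scaled CPM in wild type and 42.5, 40.7 and 41.9 in the knockout, with a change of -1.68 (SE 0.032, adjusted p = 6.8e-15). SLC7A1, which carries arginine and lysine, had a log2 change of -1.08 (SE 0.042, adjusted p = 1.1e-11). The folate enzyme gene MTHFD2 was low in both groups, at 1.24, 1.12 and 1.26 scaled CPM in wild type and 0.440, 0.447 and 0.249 in the knockout, with a log2 change of -0.97 (SE 0.16, adjusted p = 5.7e-05).

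Of the partners of the synthetases in making charged tRNA all 15 on the list were tested. Of these, 3 were higher, 7 lower and 5 not called, with a median of -0.12, where 79.9% of all genes were called. GATC, a subunit of the mitochondrial amidotransferase that makes glutaminyl-tRNA where no mitochondrial QARS exists, read 36.9998, 37.6 and 36.7 scaled CPM in wild type and 73.6, 71.2 and 70.6 in the knockout, with a log2 change of 0.94 (SE 0.037, adjusted p = 1.1e-11); its window median was 0.46. The other subunits of that enzyme did not rise: GATB was called lower at -0.20 (SE 0.040, adjusted p = 4.3e-04), and QRSL1 was not called at 0.043 (SE 0.050, adjusted p = 0.44). PSTK and SEPSECS, which act one after the other to turn seryl-tRNA into selenocysteinyl-tRNA, both rose: PSTK read 9.41, 8.73 and 9.25 scaled CPM in wild type and 15.7, 16.2 and 15.6 in the knockout, with a log2 change of 0.76 (SE 0.071, adjusted p = 1.9e-07), and SEPSECS had a log2 change of 0.71 (SE 0.072, adjusted p = 4.7e-07). SARS, which supplies the seryl-tRNA for that route, was the synthetase with the largest rise. DTD1, an editing enzyme that removes D-amino acids from tRNA, fell with a log2 change of -0.48 (SE 0.089, adjusted p = 1.9e-04); TRNT1, which adds the CCA end to tRNA, and TARSL2, a second threonyl enzyme, were lower at -0.35 (SE 0.061, adjusted p = 9.4e-05) and -0.24 (SE 0.075, adjusted p = 0.0085).

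By structural class, the median change was -0.49 over the 10 class I cytosolic enzymes and -0.40 over the 10 of class II. Both calls of a rise, SARS and GARS, were in class II. Genes lay in stretches that differed in their own change: window medians were 0.39 around GARS, which rose, and 0.51 around MARS and 0.32 around CARS, which fell, and between -0.26 and 0.11 around QARS, LARS, RARS, FARSA, KARS and HARS. Relative to their windows MARS was at -0.82, CARS at -0.70, AARS at -0.18, RARS2 at -0.24 and IARS2 at -0.29. With the window median taken out, the cytosolic counts were 16 lower and 2 higher and the median was -0.49. The part of chromosome copies in these values was not tested.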

How the data were processed

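Per the labels, total RNA of untreated HepaRG cells was made into libraries with a stranded mRNA kit. Build hg38 and the tools Bowtie2, Trim Galore, FastQC, limma and edgeR are listed in the submitters' processing notes; their versions, the annotation release and the strand setting are not given in the sources. The deposited table holds a normalized signal per gene: linear CPM that the authors multiplied by a factor per library, although it is named for log2 values. What 1 read is worth, and so the depth over the genes kept, was estimated in each library from its most common low values. Low values were whole hundredths of that read, and only 67.9 to 76.6% of them were whole reads, so counts include fractions. Of 16673 rows, 14 second pseudoautosomal copies were left out. Coordinates, overlaps and transcript lengths came from GENCODE 29 (16608 identifiers matched), promoter sequences from RefSeq (GRCh38.p14).

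Genes with scaled CPM above 1 in at least 3 of 6 libraries were tested on log2(scaled CPM + 0.5), which understates changes of low genes. The fit used limma 3.58.1 in R 4.3.3 (empirical Bayes with trend, two-sided, Benjamini-Hochberg adjustment, threshold 0.05). The same fit was run on simulated data with few changed genes and no shift in scale between libraries. That run cannot test the scaling of these data, where most genes were called. Python 3.11.15, pandas 2.3.3, numpy 2.4.6 and matplotlib 3.10.9 were used. The synthetases, gene lists and tests were chosen with earlier results of these data known. Of the synthetases found by symbol, 1 is not reported here and enters no count or sum of the family; the others are all named, and of each related list at most 4 rises and 4 falls by size, beside ATF4, DDIT3, ASNS, CHAC1 and the 3 scaffold genes; GATB and QRSL1 were added after their values were seen. No 2 libraries of a group agreed within sampling noise by the mean chi-square per gene (2.25 to 9.80). Medians per gene were 0.64 to 0.91, and genes with large differences raised the means. These medians do not show that the typical gene agreed within sampling noise. Alternatives were other pseudocounts, filters and scalings, chromosome medians taken out, no trend, a replicate block and leaving out each library.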

Additional observations from a re-analysis of the deposited data

How the results depend on the processing

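Pseudocounts of 0.1 and 1, no filter and a filter of 5 scaled CPM changed no call among the 36 synthetases described. Libraries with the same replicate number showed no shared deviations (correlations -0.020, -0.061 and 0.025). That cannot show whether they were handled together, which the labels do not say. The replicate block gave 15 lower and 2 higher cytosolic and 6 lower and 4 higher mitochondrial genes, with no call changed. Scaling moved the medians: the cytosolic median was -0.50 with quantile normalization, -0.57 with equal sums and -0.59 with equal sums without small RNA genes, and -0.50 and -0.49 with chromosome or 20 Mb window medians taken out. The window alternative was chosen after seeing the data. The mitochondrial median was -0.20 and -0.22 with the equal-sum scalings, and 11 mitochondrial genes were called lower with each. Directions turned for genes with changes near 0 and for ATF4, from a called fall to a called rise: MARS2 to -0.093 and -0.11 with equal sums, CHAC1 to -0.0063 with quantile normalization; with chromosome medians out YARS 0.014, WARS 0.025, EARS2 0.015, LARS2 0.019 and ATF4 0.15; with windows out YARS 0.061, NARS2 0.048, EARS2 0.076, LARS2 0.28 and ATF4 0.25. Leaving out each library in turn gave LARS2 -0.057 to 0.024, MARS2 -0.0079 to 0.071 and WARS -0.042 to 0.011. The cause was not tested. Without the trend AARS was not called (adjusted p = 0.079) and PARS2 was (0.025). The lowest genes carried the widest errors, with SE up to 0.082 for YARS2 at 114 reads.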
